A study of Homo sapiens with 4 samples.

Results

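The genes described here are 10 transcripts of mucus-secreting epithelia: the trefoil factor genes TFF1, TFF2 and TFF3, AGR2, AGR3, TSPAN8, ST6GALNAC1, MUC13, SPDEF and REG3A. Of 19782 gene symbols listed for any library they make up 10, and they were chosen by name after earlier results had shown several of them lower with ISL1. Their differences between ISL1 and blank virus are therefore given as a description, with no test. RNA was sequenced from Huh7, an established human hepatoma line, after infection with a lentivirus that expresses ISL1 (2 libraries) or with a blank lentivirus (2 libraries). All libraries were of the same passage, and the labels do not say whether the duplicates were separate cultures, so that their spread may be technical. ISL1 is a homeodomain factor with LIM domains, known from the heart, from motor neurons and from islets of the pancreas. The second ISL1 library is titled with the name ISL2 and is counted with ISL1 here, since the study's design speaks of no virus other than ISL1 and blank. Values are RPKM, that is, reads scaled by transcript length and by library depth. A first and a second pair are the ISL1 and blank virus libraries that share replicate number 1 or 2, and 2 values of a pair are always given in the order blank virus, ISL1.

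Trefoil factors are small, disulfide-rich peptides that mucous cells of the stomach, gut and airways secrete together with mucins, and they protect and help to reseal the epithelium. AGR2 and AGR3 belong to the protein disulfide isomerase family, and AGR2 is needed in the endoplasmic reticulum of goblet cells for mucin production. SPDEF is an ETS transcription factor of goblet cell maturation, ST6GALNAC1 is a sialyltransferase that caps mucin-type sugars, MUC13 is a mucin anchored in the cell membrane, TSPAN8 is a tetraspanin of gut epithelium, and REG3A is a secreted antibacterial lectin. Hepatocytes are not mucous cells, but hepatoma lines can express some of these genes.

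Of the 10 genes, 8 were listed in all 4 tables. SPDEF and REG3A were listed only in the tables of replicate 2. The test across genes covered the 11085 that reached 1 RPKM in 2 or more libraries. TFF1, TFF2, TFF3, AGR2, TSPAN8 and MUC13 were among these, whereas AGR3 and ST6GALNAC1 were too low.

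Libraries held 29429964 to 37134267 reads, as recovered from the steps between low values, and 3 reads in a transcript of 1 kb corresponded to 0.0808 to 0.102 RPKM. ISL1 stood at 0.0454 and 8.22 RPKM (blank virus, ISL1) in the first pair and was listed at 0 and stood at 1801 RPKM in the second, so the 2 ISL1 libraries differed greatly in its level. ISL2 stood at 4.57 and 2.08 RPKM in the first pair and at 3.23 and 13.2 RPKM in the second. The replicate numbers were processed differently: 16640 symbols were listed for replicate 1 and 17197 for replicate 2, and the median tested gene was higher in the second blank virus library than in the first by 0.96 on the log2(RPKM + 1) scale. The sum over 11 hepatocyte markers was 21880 and 21704 RPKM in the first pair and 24488 and 11210 RPKM in the second, with every marker at 1 RPKM or more except HNF4A in the first pair (0.0001 and 0.0335 RPKM). The second pair also differed in markers of other cell types. The 9 erythroid markers summed to 1032 RPKM in the second blank virus library and to 1.53 RPKM in its ISL1 partner, with AHSP at 0 in the former. The 8 cardiac markers summed to 11.5 and 68.5 RPKM there. In the first pair the erythroid sum, over the 1 marker listed, was 0.0495 and 0.0001 RPKM and the cardiac sum, over 5 markers, 13.2 and 5.70 RPKM. The part of these markers in the second pair's differences was not tested. In these bulk libraries, fewer cells that express a gene and less of its RNA per cell cannot be told apart.

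Mucous cells themselves were not evident from their defining genes. MUC2 and MUC5AC, the gel-forming mucins of goblet and gastric mucous cells, were listed only for replicate 2, at 0.00371 and 0.0216 RPKM (MUC2) and at 0.010 and 0.0233 RPKM (MUC5AC). ATOH1, the factor that commits gut cells to the secretory lineage, was at 0.0582, 0.0759, 0 and 0.0638 RPKM in the first blank virus, first ISL1, second blank virus and second ISL1 library, an order kept below for sets of 4 values. CLCA1, GKN1 and GKN2 were not found among the symbols listed for any library. Of 10 listed goblet and gastric mucous markers, 5 were listed for replicate 1 and 7 for replicate 2. Their sum was 1.46 and 2.67 RPKM in the first pair and 27.5 and 2.07 RPKM in the second. ZG16 was the 1 marker at 1 RPKM or more in each library and, at 25.9 RPKM, made up most of the sum in the second blank virus library, where TFF1, TFF2 and TFF3 were also highest. Its part in their differences was not tested.

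The promoters of the genes that stood lower in both pairs are shown for AGR2, its neighbour AGR3 and TSPAN8, and that of MUC13 because it stood lower in the first pair only. They are the 250 bases before the transcript start in RefSeq, build GRCh38.p14, on the minus strand. The AGR2 window is chr7:16805000-16805249, that of AGR3 chr7:16881984-16882233, that of TSPAN8 (the more upstream of its starts) chr12:71158000-71158249 and that of MUC13 chr3:124934752-124935001. Capitals mark matches to any of 5 motifs, searched on both strands: TATAAA (the TATA box), TGTTTAC (forkhead factors), TTTATG (CDX factors), CTAATNG (an ISL1-type motif) and TAATTA (a homeodomain core).
AGR2: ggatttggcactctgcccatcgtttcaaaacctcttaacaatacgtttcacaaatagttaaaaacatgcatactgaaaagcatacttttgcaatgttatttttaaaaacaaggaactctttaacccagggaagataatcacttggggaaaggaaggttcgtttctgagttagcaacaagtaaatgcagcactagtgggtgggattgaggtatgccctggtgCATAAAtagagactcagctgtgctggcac
AGR3: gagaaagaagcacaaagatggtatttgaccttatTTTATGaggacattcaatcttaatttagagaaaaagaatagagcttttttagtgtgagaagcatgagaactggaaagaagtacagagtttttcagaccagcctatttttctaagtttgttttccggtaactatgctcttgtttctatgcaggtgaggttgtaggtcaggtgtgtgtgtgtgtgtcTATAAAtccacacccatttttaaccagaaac
TSPAN8: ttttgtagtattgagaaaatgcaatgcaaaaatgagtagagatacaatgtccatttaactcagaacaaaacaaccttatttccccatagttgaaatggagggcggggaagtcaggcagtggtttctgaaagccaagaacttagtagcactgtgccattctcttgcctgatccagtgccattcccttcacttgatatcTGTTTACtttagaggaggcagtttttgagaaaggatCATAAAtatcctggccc
MUC13: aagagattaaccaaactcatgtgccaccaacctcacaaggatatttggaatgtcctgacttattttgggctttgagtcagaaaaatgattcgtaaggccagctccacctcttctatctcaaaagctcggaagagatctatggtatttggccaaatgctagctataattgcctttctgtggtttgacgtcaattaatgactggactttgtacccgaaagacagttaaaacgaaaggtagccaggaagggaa

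In AGR2 the capitals are TTTATG on the opposite strand, 29 to 24 bases before the start, and share most of their letters with a TATA box. AGR3 held TATAAA 31 to 26 bases before its start and TTTATG further upstream, at 216 to 211. TSPAN8 held TGTTTAC 53 to 47 bases before the start and TTTATG on the opposite strand at 17 to 12. No match to CTAATNG or TAATTA was found in these 4 windows, and none of the 5 motifs in that of MUC13. Of all 35116 RefSeq windows of the same length, 10.7% held TATAAA, 2.98% TGTTTAC, 9.64% TTTATG, 4.21% CTAATNG and 4.35% TAATTA. The GC content was 40.4% for AGR2, 36.4% for AGR3, 40.8% for TSPAN8 and 41.6% for MUC13, where the median of all windows was 58%. In all, 6 of the 10 genes had a promoter in the table, and those of TFF1, TFF2, TFF3 and ST6GALNAC1 were not analysed here.

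TFF1 and TFF2, the gastric-type trefoil peptides, stood several-fold lower with ISL1 in both pairs, whereas TFF3, the intestinal-type peptide, differed by more than counting error in the second only. TFF1 stood at 66.4 RPKM in the first blank virus library and 9.54 RPKM in the first ISL1 library, and at 169 and 58.7 RPKM in the second pair. Both ISL1 libraries lay below both blank virus libraries, although the second ISL1 library was close to the first blank virus library. Within pairs TFF1 was 6.96-fold lower (95% counting interval 5.94 to 8.19) and 2.87-fold lower (2.66 to 3.10). These ratios rest on at least 1089 and 180 reads in the first pair and 2936 and 878 in the second. Its group means were 118 ± 72.3 RPKM (SD, n = 2) with blank virus and 34.1 ± 34.8 RPKM (SD, n = 2) with ISL1.

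TFF2 stood at 23.7 and 4.73 RPKM in the first pair and at 187 and 26.6 RPKM in the second. It was lower with ISL1 in each pair, yet the groups overlapped, since the second ISL1 library was above the first blank virus library. The ratio was 5.002-fold (4.11 to 6.12) in the first pair and 7.03-fold (6.44 to 7.69) in the second. Unlike TFF1, the larger ratio was in the second pair. TFF3 stood at 10.5 and 10.4 RPKM in the first pair, a ratio of ISL1 to blank virus of 0.991 (counting interval 0.858 to 1.14), and at 42.0 and 20.2 RPKM in the second, 2.08-fold lower (1.89 to 2.28). A difference in the first pair was thus not detectable at 359 and 409 reads, and the groups overlapped. On the log2(RPKM + 1) scale that pair differed by -0.01, and by 0.0108 with quantile normalization, so its sign depended on the scaling.

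The 3 trefoil genes lie side by side on chromosome 21, and their values, being scaled by length, were summed. The sum was 100.6 RPKM in the first blank virus library against 24.7 RPKM in the first ISL1 library. In the second pair it was 397.5 and 105.5 RPKM. The mixture differed between libraries. TFF3 made up 10.5% of the sum in the first blank virus library and 10.6% in the second, against 42.3% and 19.2% in their ISL1 partners. TFF1 made up 66.0% and 38.6% in the first pair, but 42.4% and 55.7% in the second, and TFF2 23.5% and 19.1%, then 47.0% and 25.2%. A larger share of TFF3 with ISL1 was therefore seen in both pairs, while the share of TFF1 went opposite ways.

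**Figure D1:**
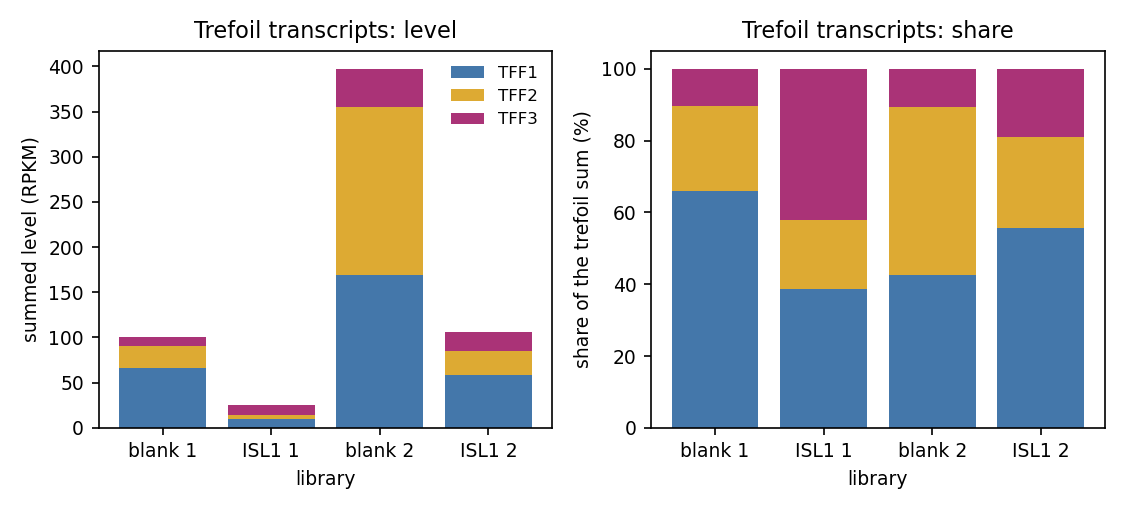
Summed level in RPKM (left) and percent share (right) of TFF1, TFF2 and TFF3 in each of the 4 libraries (blank, blank lentivirus; ISL1, ISL1 lentivirus; the number is the replicate). The sum is 24.7 RPKM in the first ISL1 library against 100.6 in its control and 105.5 against 397.5 in the second pair, and the TFF3 share is 42.3% and 19.2% with ISL1 against 10.5% and 10.6%.

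AGR2 was the most abundant of the 10 genes in all 4 libraries and stood about as much lower in one pair as in the other. It was at 616 and 229 RPKM in the first pair and at 444 and 144 RPKM in the second. Both ISL1 libraries lay well below both blank virus libraries. The ratios were 2.69-fold (2.63 to 2.76) and 3.08-fold (2.98 to 3.19), on 19824 and 8462 reads and on 15145 and 4220 reads. In the first pair AGR2 ranked 59 of 16640 listed symbols with blank virus and 141 with ISL1, and in the second 145 and 448 of 17197.

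AGR3, its neighbour on chromosome 7, was scarce. It stood at 0.649 RPKM (16 reads) in the first blank virus library and was listed at 0.0001 RPKM, which replaces 0 there, in the first ISL1 library. Against 3 reads, the limit that a count of 0 allows, that is at least 6.13-fold lower, and the 95% counting interval, which also takes in the error of the 16 reads, begins at 4.44-fold. In the second pair it stood at 1.03 RPKM (27 reads) and 0.178 RPKM (4 reads), 5.80-fold lower with a wide counting interval of 2.02 to 22.8. The groups did not overlap. AGR2 was 949 and 430 times as high as AGR3 per length in the first and second blank virus library.

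TSPAN8 had nearly the same level in both blank virus libraries, 69.7 and 69.2 RPKM (mean 69.4 ± 0.399 RPKM, SD, n = 2). With ISL1 it stood at 12.5 and 21.8 RPKM. The groups did not overlap, and the ratio was 5.59-fold (5.09 to 6.14) in the first pair and 3.17-fold (2.93 to 3.45) in the second. ST6GALNAC1, the enzyme that makes the sialyl-Tn sugar on mucins, showed the reverse arrangement, with alike ISL1 libraries and unlike controls. It stood at 3.62 and 0.158 RPKM in the first pair and at 0.755 and 0.160 RPKM in the second. The groups did not overlap, and the ratios were 22.8-fold (13.6 to 41.3) on 298 and 15 reads and 4.72-fold (2.53 to 9.60) on 66 and 12 reads.

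MUC13 differed in opposite directions. It stood at 14.2 and 1.96 RPKM in the first pair, 7.25-fold lower with ISL1 (6.27 to 8.43), and at 27.7 and 42.1 RPKM in the second, where the ISL1 library was higher by a ratio of 1.52 (1.44 to 1.60). The groups overlapped, and neither counting interval held 1. A log2 difference of -1 or less in the first pair with a higher value in the second was seen for 177 of the 11085 tested genes (1.6%).

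SPDEF and REG3A can be read in the second pair alone, and both were higher there with ISL1, at very low levels. SPDEF stood at 0.154 RPKM with blank virus and 0.646 RPKM with ISL1, on at least 5 and 18 reads, a ratio of 4.19 (1.5 to 14.4). REG3A stood at 0.0522 and 1.03 RPKM, on 2 and 34 reads, a ratio of 19.8 (5.08 to 170.1). TFF1, TFF2, TFF3, AGR2, AGR3, TSPAN8 and ST6GALNAC1 were lower in that pair, and the part of SPDEF in their differences was not tested. With 1 library per group, the values of SPDEF and REG3A have no replicate check.

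**Figure D2:**
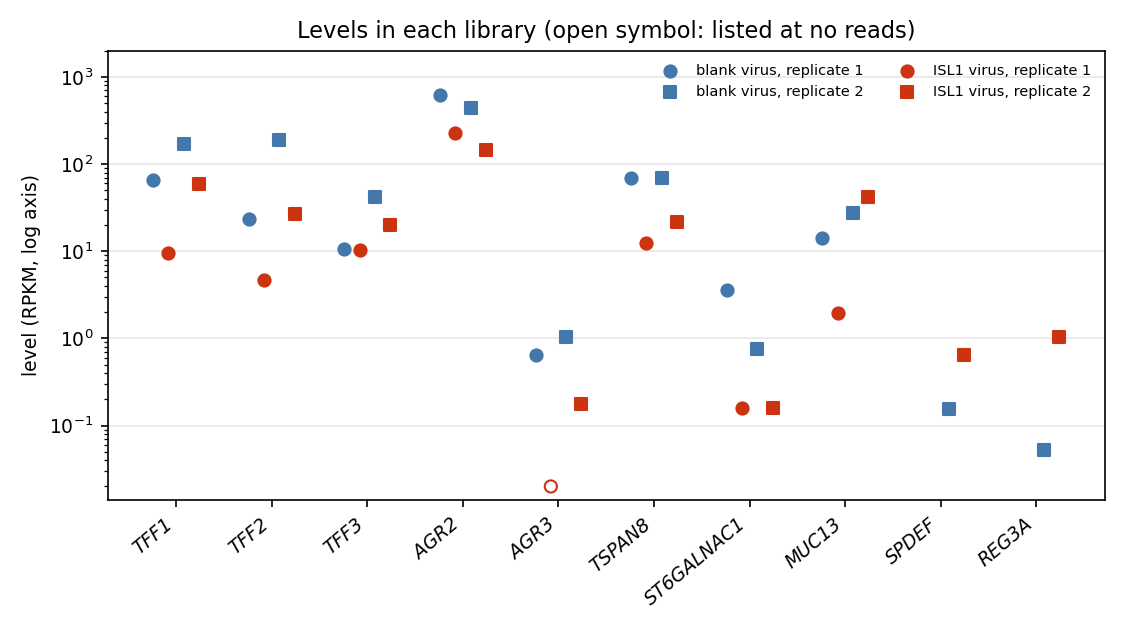
Level of each gene in RPKM on a log axis, with 1 point per library (blue, blank lentivirus; red, ISL1 lentivirus; circles, replicate 1; squares, replicate 2; the open circle at the lower edge is AGR3, listed at 0.0001 RPKM). AGR2 is highest in every library, from 144 to 616 RPKM, and SPDEF and REG3A appear for replicate 2 only.

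**Figure D3:**
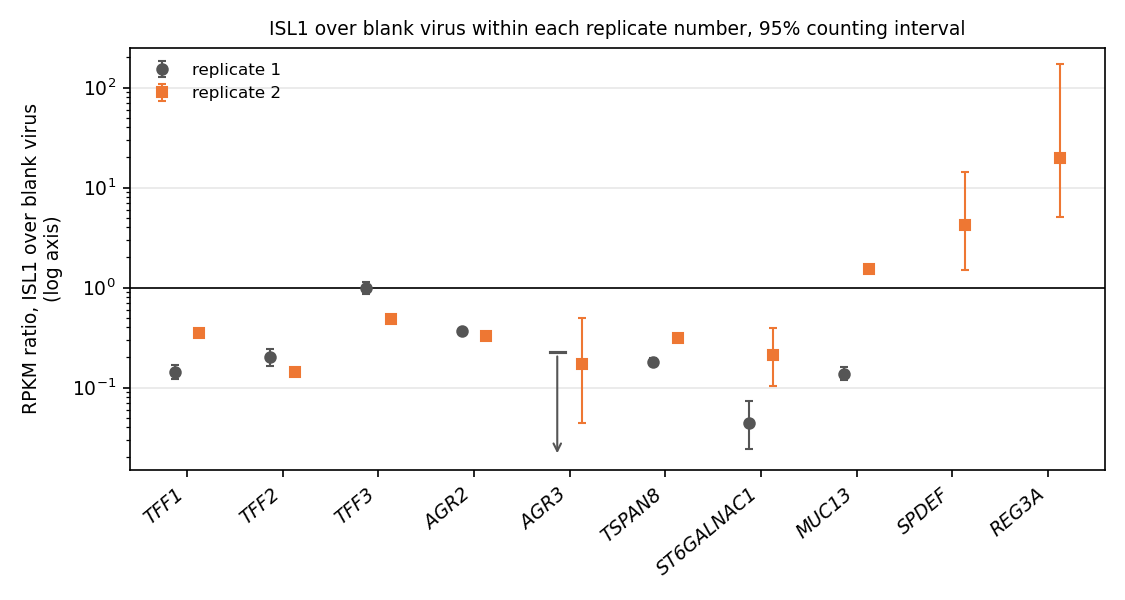
Ratio of RPKM with ISL1 to that with blank lentivirus within replicate 1 (grey circles) and replicate 2 (orange squares), on a log axis, with 95% counting intervals; the arrow marks the upper limit for AGR3 in replicate 1, where no read was listed with ISL1. TFF3 in the first pair sits at 0.991, and MUC13 lies at 0.138 for replicate 1 and at 1.52 for replicate 2.

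Counted together, 5 of the 6 tested genes and 7 of the 8 in all 4 tables were lower with ISL1 in both pairs, TFF3 among them by a margin in the first pair that its reads could not resolve. Over all tested genes the share lower in both pairs was 19.1%, and 20.8% over the genes in every table. MUC13 went opposite ways, as did 57.8% of all tested genes. With quantile normalization TFF3 left the count, which was then 4 of 6. TFF1, TFF2, AGR2 and TSPAN8 were 2-fold or more lower in both pairs on the log2(RPKM + 1) scale, as were 26 of 11085 tested genes (0.235%). Both ISL1 libraries lay below both controls for TFF1, AGR2 and TSPAN8 among the 6 (background 5.08%) and also for AGR3 and ST6GALNAC1 among the 8 (background 6.57%). The genes were chosen on this contrast, so the counts describe the choice. The median log2 difference of the 6 was -2.23 for the first pair and -1.56 for the second, beside medians of -0.0021 and 0.06 over all tested genes. By gene, the mean of both pair differences on this scale was -2.09 ± 0.828 (SD, n = 2 pairs) for TFF1, -2.44 ± 0.468 for TFF2, -0.52 ± 0.712 for TFF3, -1.52 ± 0.135 for AGR2 and -2.01 ± 0.544 for TSPAN8. For AGR3 it was -0.75 ± 0.046, for ST6GALNAC1 -1.30 ± 0.988 and for MUC13 -0.89 ± 2.08 (SD, n = 2 pairs each). For TFF3 and MUC13 the spread between the pairs was larger than the mean difference, and leaving out 1 library could reverse the pooled value. This value became 0.43 for TFF3 without the second blank virus library and 1.04 for MUC13 without the first ISL1 library. Leaving out 1 library sets unequal mixes of the differently processed replicate numbers against each other. Such values therefore also carry the shift between the replicate numbers. Pooled values of other genes moved too. TFF1 came to -0.84 without the first ISL1 library and -3.34 without the second. TFF2 came to -0.97 without the second blank virus library, -1.30 without the first ISL1 library and -3.90 without the first blank virus library. The median of the 6 genes pooled over all libraries was -1.76, and -1.07 without the first ISL1 library.

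**Figure D4:**
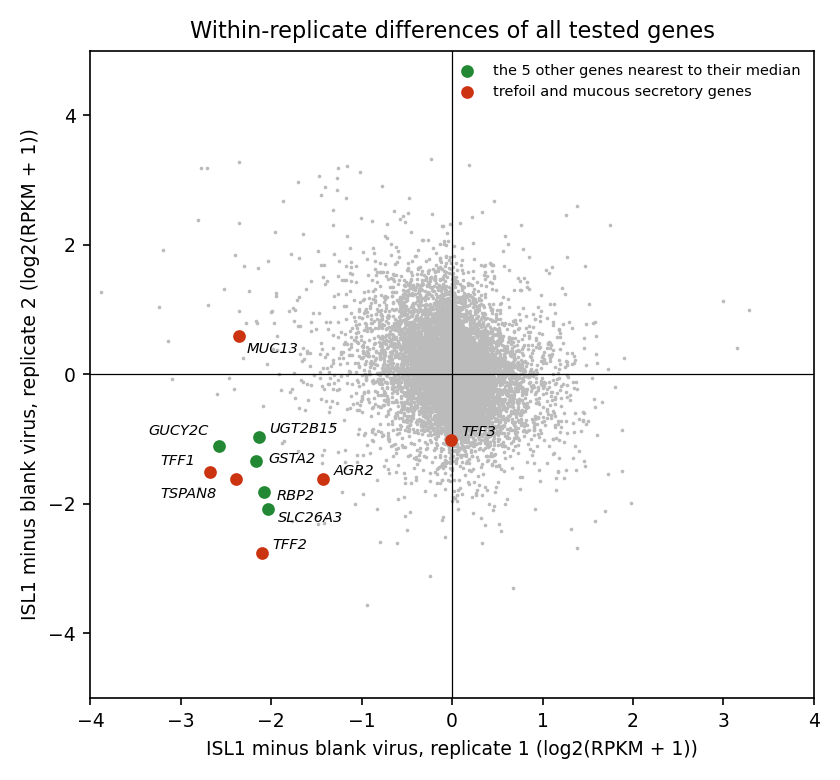
Difference between ISL1 and blank lentivirus on the log2(RPKM + 1) scale in replicate 1 (horizontal) and replicate 2 (vertical) for the 11085 tested genes in grey, of which 2 lie outside the axes. TFF1, TFF2, AGR2 and TSPAN8 (red) lie at -1 or less on both axes, TFF3 lies near 0 on the horizontal axis, MUC13 lies above 0 on the vertical axis, and in green are the 5 other genes nearest to the median of all 6 red genes, TFF3 and MUC13 included.

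The order of the levels was not fixed beyond AGR2. In the first blank virus library TSPAN8 (69.7 RPKM) and TFF1 (66.4) came next, followed by TFF2 (23.7), MUC13 (14.2) and TFF3 (10.5). In the second TFF2 (187) and TFF1 (169) exceeded TSPAN8 (69.2), and TFF3 (42.0) exceeded MUC13 (27.7). The blank virus means of AGR2 (530.0 ± 122 RPKM, SD, n = 2) and TFF1 were further apart than their spread, whereas those of TFF1 and TFF2 (105 ± 115 RPKM, SD, n = 2) and of TFF3 (26.3 ± 22.2) and MUC13 (21.0 ± 9.56) were not.

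Levels of the same gene also differed between the replicate numbers. The second blank virus library exceeded the first by 1.33 for TFF1, 2.93 for TFF2, 1.90 for TFF3 and 0.92 for MUC13 on the log2(RPKM + 1) scale, and differed by -0.47 for AGR2, -0.01 for TSPAN8 and -1.40 for ST6GALNAC1. Among tested genes with 1 RefSeq transcript this shift had a median of 0.16 (quartiles -0.24 and 0.60, 2979 genes), and with 3 or more a median of 2.26 (5193 genes). The trefoil genes, MUC13, AGR2 and AGR3 have 1 RefSeq transcript each. TFF1, TFF2, TFF3 and MUC13 were shifted by more than the upper quartile of that class, AGR3 by 0.30 and AGR2 by less than the lower quartile. With 2 RefSeq transcripts the median shift was 1.63, and TSPAN8, which has 2, and ST6GALNAC1, which has 3, lay far below the medians of their classes. SPDEF and REG3A, listed only for replicate 2, have 2 and 3. The part of the processing in the shifts of single genes was not tested.

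The other genes of the mucous secretory pathway were read from lists. None of them passed limma's test at an adjusted p of 0.05, nor did any of the 11085 genes, ISL1 included. The limma count was 0 (0%), with 15 genes at an unadjusted p under 0.05. That fit left out the replicate number, so the shift between replicate numbers added to its spread. With a replicate block the limma count was also 0, with 260 genes at an unadjusted p under 0.05. ISL1 passed with quantile normalization alone (limma adjusted p = 0.00998). The limma adjusted p was 1.00 for each tested list gene named below, and the values are therefore given as a description. An exact permutation test of 2 libraries against 2 cannot give a two-sided p below 0.333. Counts of genes lower or higher in both pairs, in lists and background alike, go by sign alone, whatever the size. Among the lists, counting error was worked out for the secreted proteins only. Some signs in the other lists may therefore lie within it.

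Among 25 listed secreted proteins of goblet and other mucous cells, 13 were in all 4 tables, and 8 of these stood lower with ISL1 in both pairs (background 20.8%). Of the rest, 1 stood higher in both (background 22.8%) and 4 went opposite ways (background 56.4%). The list was chosen with earlier results of these data known. Both ISL1 libraries lay below both controls for 7 of them (background 6.57%): ZG16B, SPINK4, REG1A, ITLN1, ITLN2, PIGR and TCN1, whose levels reached at most 4.27 RPKM. These genes are named after their values were seen. PIGR, the receptor that carries IgA and IgM across epithelia, stood at 0.865 and 0.107 RPKM in the first pair (at least 120 and 17 reads) and at 4.27 and 0.854 in the second (629 and 108 reads). ITLN1, the lectin intelectin, stood at 0.615 and 0.334 RPKM and at 1.16 and 0.393 RPKM, and its relative ITLN2 at 0.377 and 0.0001 and at 1.98 and 0.236 RPKM. TCN1, a vitamin B12 binder of mucosal secretions, stood at 0.864 and 0.102 RPKM and at 0.333 and 0.172 RPKM. Reads were few for several of them, with ZG16B at 13 and 2 reads and at 8 and 0. The counting interval of the ratio of ISL1 to blank virus held 1 for ITLN1 in the first pair (0.265 to 1.08). It also held 1 for TCN1 in the second (0.195 to 1.25). REG1A in both pairs and SPINK4 in the first stood below the RPKM of 3 reads in 1 kb, and their reads were not recovered. Not all of these differences thus exceeded counting error.

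The abundant members did not share that pattern. SPINK1, a secreted trypsin inhibitor, stood at 405 and 510.0 RPKM in the first pair and at 517 and 523 in the second, and LYZ, lysozyme, at 51.0 and 48.4 and at 39.3 and 41.5 RPKM. LCN2, an iron-siderophore binder, was lower in both, at 0.774 and 0.0001 and at 5.77 and 4.61 RPKM. Its ratio of ISL1 to blank virus in the second pair had a counting interval of 0.561 to 1.13, which holds 1. ZG16, a goblet cell lectin, stood at 1.15 and 2.42 RPKM in the first pair and at 25.9 and 1.73 RPKM in the second. Only SPINK1, LYZ, LCN2 and ZG16 of these 13 reached the level required for the test, with median log2 differences of 0.13 and -0.13 (first pair, second pair, here and for the lists below).

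**Figure D5:**
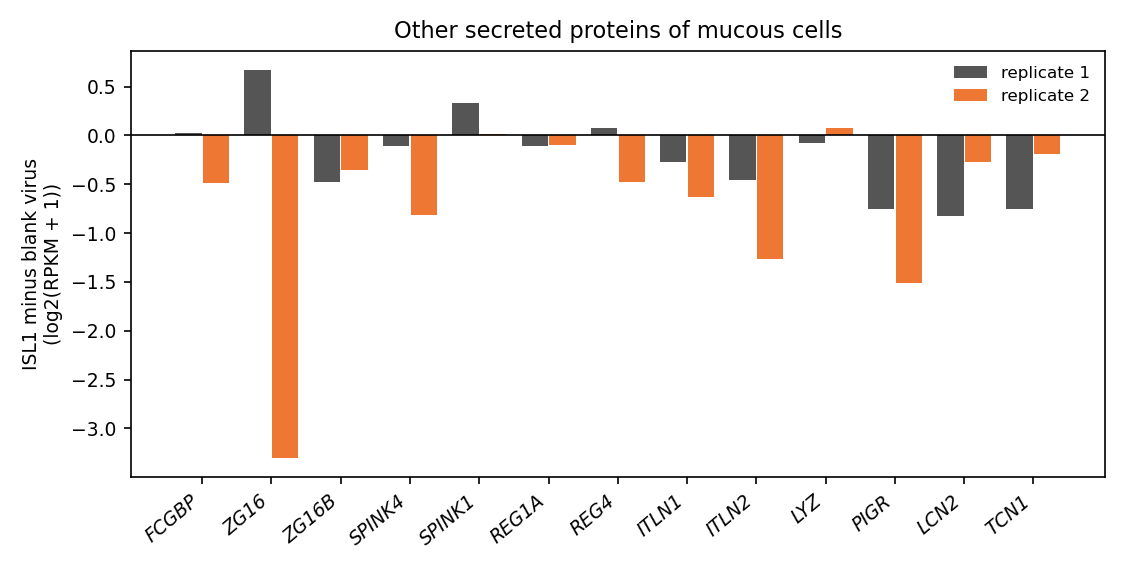
Difference between ISL1 and blank lentivirus on the log2(RPKM + 1) scale in replicate 1 (grey bars) and replicate 2 (orange bars) for the 13 other secreted proteins of mucous cells in all 4 tables. Bars of both replicates point down for 8 genes, for PIGR by -0.75 and -1.51, while ZG16 has 0.67 and -3.30.

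Of the mucins other than MUC13, none reached 1 RPKM in the first pair, whereas MUC1, MUC3A, MUC15 and MUC20 did in the second. Of 14 listed mucin genes, 12 were in any table and 6 in all 4. The medians of MUC15 and MUC20, the tested ones, were -0.05 and 0.02. MUC15 stood at 0.136 and 0.0869 RPKM in the first pair and at 12.3 and 12.9 RPKM in the second. MUC20 stood at 0.0383 and 0.0125 and at 1.22 and 1.18 RPKM. MUC3A, a membrane mucin like MUC13 and chosen after its values were seen, was listed only for replicate 2, at 8.92 and 6.52 RPKM.

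Epithelial transcription factors that work with or near SPDEF stood lower in both pairs for 8 of 21 tested (background 19.1%), higher in both for 0 (background 23.1%) and in opposite directions for 13. Their medians were -0.40 and -0.11. CDX2, the caudal factor of the intestine, stood at 24.8 and 22.0 RPKM in the first pair and at 122 and 43.5 RPKM in the second. XBP1, a factor of secretory cells, stood at 11.2 and 9.88 and at 299 and 224 RPKM. The Notch target HES1 went opposite ways, at 32.7 and 13.97 and at 21.6 and 149 RPKM. FOXA1 and FOXA3, forkhead factors of liver and gut named after their values were seen, stood at 37.6 and 28.1 and at 41.2 and 29.3 RPKM (FOXA1), and at 18.9 and 16.5 and at 21.4 and 17.5 RPKM (FOXA3). FOXA2 stood at 0.587 and 0.521 and at 36.5 and 77.6 RPKM.

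Enzymes of mucin-type O-glycosylation other than ST6GALNAC1 stood lower in both pairs for 4 of 22 tested, higher in both for 3 (background 23.1%) and in opposite directions for 15 (background 57.8%), so that the share lower in both was near the background of 19.1%. Their medians were 0.00246 and -0.10. GALNT5, which starts O-glycan chains, was 2-fold lower in both pairs, with 9.41 and 2.85 RPKM in the first pair and 5.14 and 1.58 RPKM in the second. GALNT1, another enzyme of that step, stood at 49.2 and 49.8 and at 26.4 and 21.1 RPKM, and GCNT3, which branches mucin glycans, at 31.9 and 19.5 and at 37.4 and 34.8 RPKM.

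The list of other disulfide isomerases and oxidases also held ERN1, which is neither. Of its 17 tested genes, 1 was lower in both pairs (background 19.1%) and 6 were higher in both (background 23.1%). Another 10, ERN1 among them, went opposite ways (background 57.8%), and the medians were 0.17 and 0.16. PDIA3 stood at 156 and 249 RPKM and at 197 and 279 RPKM. P4HB, the archetypal protein disulfide isomerase, stood at 328 and 483 and at 477 and 476 RPKM. QSOX1, a sulfhydryl oxidase, was the 1 that was lower in both, at 5.45 and 1.99 and at 34.3 and 30.8 RPKM.

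Tetraspanins and their partners were lower in both pairs for 9 of 26 tested (background 19.1%) and higher in both for 7 (background 23.1%), with medians of -0.02 and -0.11. CD63, a tetraspanin of late endosomes, stood at 16.0 and 13.9 and at 345 and 374 RPKM, and ITGB1, the beta-1 integrin, at 3.19 and 3.63 and at 198 and 202 RPKM. EPCAM, an adhesion molecule that binds tetraspanin complexes, stood at 108 and 47.8 and at 73.5 and 66.7 RPKM, and TSPAN3 at 3.32 and 2.43 and at 57.9 and 30.1 RPKM. No member of the list was 2-fold lower in both pairs on the log2(RPKM + 1) scale, as TSPAN8 was. That needs at least 1 RPKM with blank virus in both pairs, which several members lacked, CD82 and ITGA3 among them.

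The list of receptors and ligands of the trefoil, REG and EGF families also held some of other families, IL6ST among them. Of its genes, 4 of 12 tested were lower in both pairs (background 19.1%) and 2 higher (background 23.1%), with medians of -0.67 and 0.02. The 2 higher ones were very low in the first pair, IL6ST at 0.00683 and 0.00891 RPKM and EGF at 0.0664 and 0.0962 RPKM. EGFR, the EGF receptor, stood at 23.2 and 12.1 and at 38.5 and 20.7 RPKM, and its relative ERBB3 at 67.9 and 49.3 and at 75.6 and 35.8 RPKM. F2RL1, a protease-activated receptor, stood at 53.7 and 8.91 and at 17.5 and 16.8 RPKM. AREG, the ligand amphiregulin, went opposite ways, at 145 and 14.9 and at 11.2 and 45.1 RPKM. Of the estrogen receptor list, 3 of 9 tested were lower in both pairs (background 19.1%) and 0 higher (background 23.1%), with medians of -0.16 and 0.20. The estrogen receptors themselves were too low to be among the 9. ESR1 was listed for replicate 2 only, at 0.0180 and 0.0210 RPKM. ESR2 stood at 0.0001 and 0.0196 RPKM in the first pair and at 0.0472 and 0.110 RPKM in the second. The keratins KRT8 and KRT18 stood at 20.1 and 18.9 and at 685 and 786 RPKM, and at 35.0 and 30.7 and at 335 and 788 RPKM. ESRRA, an orphan nuclear receptor, stood at 20.6 and 14.6 and at 21.8 and 17.7 RPKM. In the LIM complex list, 4 of 6 tested were higher in both pairs (background 23.1%), the overexpressed ISL1 among them, and 0 lower (background 19.1%), with medians of 0.09 and 0.31. LDB1, the cofactor that binds LIM domains, stood at 1.07 and 1.47 and at 19.7 and 27.8 RPKM.

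Other tested genes were ranked by the Euclidean distance of their pair of log2(RPKM + 1) differences from the median pair of the 6 tested trefoil and mucous genes. The 5 nearest were GSTA2 (0.229), RBP2 (0.299), SLC26A3 (0.560), GUCY2C (0.570) and UGT2B15 (0.598). RBP2, SLC26A3 and GUCY2C encode proteins of the intestinal epithelium, and GSTA2 and UGT2B15 conjugating enzymes. UGT2B15 stood at 8.17 and 1.08 RPKM in the first pair and at 1.77 and 0.412 RPKM in the second. As a set, the 9 enterocyte markers summed to 341 and 127 RPKM in the first pair, where 8 were listed, and to 605 and 235 RPKM in the second. RBP2, SLC26A3 and GUCY2C, just named for their likeness, are on that list, and RBP2 (199.7 and 46.4 RPKM, then 337 and 94.7) and GUCY2C (74.2 and 11.6, then 70.1 and 32.1) made up most of the first blank virus library's sum. Of its other markers in all 4 tables, SI, CDH17 and FABP2 were also lower in both pairs, whereas VIL1 and ALPI went opposite ways. On the log2(RPKM + 1) scale the differences were -1.44 and -1.36 for SI and -0.896 and -0.637 for CDH17. FABP2, at 0.13 RPKM or less in each library, differed by -0.0765 and -0.132. VIL1, villin of the brush border, stood at 50.03 and 66.3 RPKM and at 95.4 and 43.3 RPKM, and ALPI, the intestinal alkaline phosphatase, at 4.10 and 0.295 and at 5.598 and 7.67 RPKM. Cholangiocyte markers summed to 201 and 92.6 RPKM and to 133 and 148 RPKM, leukocyte markers to 53.7 and 50.3 and to 117 and 99.7 RPKM, and fibroblast or smooth muscle markers to 2.32 and 3.55 and to 7.06 and 12.9 RPKM. The part of these cell type markers in the differences of the trefoil and mucous genes was not tested.

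No listed neighbour of the trefoil cluster or of AGR2 and AGR3 was 2-fold or more lower in both pairs on the log2(RPKM + 1) scale. Such a difference needs at least 1 RPKM with blank virus in both pairs. Beside the trefoil cluster only SLC37A1 had that, and beside AGR2 and AGR3 only TSPAN13, BZW2, ANKMY2, AHR and SNX13. For the other neighbours the outcome was fixed in advance by their level or listing. On chromosome 21, C2CD2 and SLC37A1 were the only tested genes among the 4 nearest listed symbols on each side of the trefoil cluster. SLC37A1, a sugar-phosphate transporter, stood at 5.70 and 1.58 RPKM in the first pair and at 6.58 and 5.85 in the second, and C2CD2 at 0.127 and 0.106 and at 4.04 and 3.46 RPKM. The other 6, ABCG1, UMODL1, ZBTB21, TMPRSS3, UBASH3A and RSPH1, were at 2.15 RPKM or less in every library that listed them. Around AGR2 and AGR3, TSPAN13, a tetraspanin, stood at 86.9 and 55.6 and at 54.3 and 80.9 RPKM, and AHR, the aryl hydrocarbon receptor, at 56.0 and 16.0 and at 24.8 and 25.3 RPKM. BZW2 (0.10 and 0.31), ANKMY2 (-0.10 and 0.83) and SNX13 (-0.57 and 0.26) differed by less than 1 on the log2(RPKM + 1) scale in each pair. SOSTDC1, PRPS1L1 and HDAC9 were at 1.68 RPKM or less in each library.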

How the data were processed

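RPKM values were deposited by the authors as gene symbol tables, 1 for each library. The submitters' processing notes name CASAVA 1.4, BWA and hg19, and neither the counting program nor the annotation is given in the sources used here. Replicate 1 tables hold 0.0001 where replicate 2 tables hold 0. Depth was recovered from low values (below 5 RPKM), whose quotients within a pair were those of whole numbers of at most 500 (tolerance 1e-07) for 97.1% and 96.3% of genes, against 2.19% and 2.21% after an arbitrary factor. Reads per gene are the smallest whole numbers that match one gene length in both pairs, so true numbers may be multiples. Intervals (95%, Clopper-Pearson on a pair's reads) and the limit of 3 reads cover counting error only.

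Genes listed for every library and reaching 1 RPKM in 2 of them were tested on log2(RPKM + 1), which understates changes of low genes, with limma 3.58.1 in R 4.3.3 (eBayes with trend, two-sided, Benjamini-Hochberg, threshold 0.05), 2 ISL1 against 2 blank virus libraries. No p is given for the 10 genes. Other steps ran in Python 3.11.15 (SciPy 1.17.1, pandas 2.3.3). The depth recovery and the limma fit were tried on simulated data. There the limma fit without a replicate block had to recover changes only where no shift between replicate numbers was simulated. Alternatives were a pseudocount of 0.1, other scalings and filters, a replicate block, eBayes without trend and leaving out each library. Members and lists were chosen with earlier results of these data known. Besides members, ISL1 and ISL2, the text names from each list the 2 highest tested genes and the 2 with the largest mean difference of one sign in both pairs, the 5 nearest genes by pattern and 4 neighbours on each side of both clusters. One gene that this rule names is not reported here. Other names were chosen after their values were seen. Promoters and gene order are RefSeq's (GRCh38.p14).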

Additional observations from a re-analysis of the deposited data

How the results depend on the processing

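Of the 6 tested genes, 5 were lower in both pairs with a pseudocount of 0.1, median-ratio scaling or a minimum of 5 RPKM, 4 with quantile normalization, and 7 of 8 with no filter on low values. Genes past the limma threshold numbered 0 in each alternative except quantile normalization, with 1 (ISL1). The labels give the replicate numbers no meaning beyond the number. Deviations from the group means correlated at 0.882 across 11085 genes between libraries of the same replicate number (genes are not independent). Since the replicate numbers were processed differently, this value cannot tell a pairing of cultures from a shift by processing. With the replicate block the limma count was 0, with 260 genes at an unadjusted p under 0.05. Leaving out 1 library sets unequal mixes of the differently processed tables against each other. The median of the 6 genes then ranged from -2.60 to -1.07 (-1.76 with all libraries), TFF1 from -3.34 to -0.84, TFF2 from -3.90 to -0.97, TFF3 from -1.46 to 0.43, AGR2 from -1.85 to -1.19, TSPAN8 from -2.39 to -1.63 and MUC13 from -2.82 to 1.04. List medians, pooled, ranged from -1.21 to 1.18 for mucins, -0.76 to 0.38 for secreted proteins, -1.11 to 0.44 for transcription factors, -0.62 to 0.41 for O-glycosylation enzymes, -0.13 to 0.60 for disulfide isomerases, -0.89 to 0.64 for tetraspanins, -1.42 to 0.95 for receptors and ligands, -1.64 to 1.77 for the estrogen receptor list and -0.52 to 1.68 for the LIM list. With a minimum of 5 RPKM, which leaves fewer genes, the medians were 7.42e-05 for mucins and 0.0883 for secreted proteins, against -0.02 and -0.27 in the main analysis. They were -0.15 and -0.70 with a pseudocount of 0.1, -0.09 and -0.47 with quantile normalization, -0.04 and -0.31 with median-ratio scaling and -0.03 and -0.45 with no filter. Few reads limit AGR3, ST6GALNAC1, SPDEF and REG3A.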
